A study of Gallus gallus with 16 samples.

Results

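The livers of 16 male broiler chickens were sorted by the signal of 5 genes of fat synthesis, and the 5 livers with the highest and the 5 with the lowest score were compared over all other genes. The score of a liver was the mean log2 signal of FASN, ME1, ACSS2, THRSP and ELOVL6, each read from the feature of that gene with the highest mean. The 10 livers were selected on their measured values and without regard to diet, and the other 6 livers, which lay between, were kept as a separate set. Livers were taken on day 21, each was hybridised to 1 array, and the 4 diets (A, E, F, H) were represented by 4 livers apiece. Its title names a blend of essential oils and saponins as feed additives, but the feed behind each letter is not given, so the letters are used as they are. The labels give no further treatment, and none of these groups is a treatment group.

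In birds, most fatty acid synthesis takes place in the liver and little in adipose tissue, and a growing broiler on a starch-rich diet makes fat continuously. Acetyl-CoA is built into palmitate by fatty acid synthase (FASN) with NADPH from malic enzyme (ME1), acetate is activated by ACSS2, palmitate is lengthened by ELOVL6, and THRSP is a small nuclear protein, induced by thyroid hormone and carbohydrate, that accompanies this programme. The fat is then esterified, stored in droplets or packed into very low density lipoprotein for export, while fatty acid oxidation is its opposite branch. Several central genes of these routes, among them ACACA, ACLY, SCD, MLXIPL and DGAT2, matched no feature by symbol in the annotation used, so no values are given for them. Whether any unnamed feature measures them was not tested. No sequences are shown.

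The score ran from 10.03 to 11.81 over the 16 livers. Writing a liver as its diet letter and replicate number, the 5 lowest were E2 at 10.03, H1 at 10.39, A4 at 10.45, A2 at 10.55 and F4 at 10.70. The 5 highest were A3 at 11.47, H4 at 11.49, H3 at 11.57, E4 at 11.60 and F1 at 11.81. Each diet gave at least 1 liver to each end. No wide gap marked the edges of the groups. The liver just inside the low group stood at 10.70 and the next one up, A1, at 10.77. At the other edge, the liver just inside the high group stood at 11.47 and the next one down, H2, at 11.38. Among the 6 livers between there was a wider step, from E1 at 10.84 to F2 at 11.16. By diet the mean score was 10.8 ± 0.46 (SD, n = 4) for A, 10.9 ± 0.68 for E, 11.3 ± 0.46 for F and 11.2 ± 0.55 for H, so the diet means lay within 1 SD of each other. The sample titles carry a number of unstated meaning, and livers numbered up to 25 averaged 10.9 ± 0.57 (SD, n = 8; 1 in the high and 3 in the low group), against 11.2 ± 0.43 (n = 8; 4 and 2) for the higher numbers. With this title block, or diet, as a covariate, limma called 1 feature, the same count as without it. Features with an unadjusted limma p under 0.05 fell, however, from 1441 to 804 with title block and to 811 with diet. Both counts lie below the 1040 that this threshold alone would reach.

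The 5 scoring genes did not contribute equally, and their values are given only to describe how the livers were sorted. FASN lay between 11.66 and 12.53 in the low livers and between 13.00 and 13.42 in the high livers. ME1 ran from 8.36 to 9.64 against 10.61 to 11.86, and THRSP from 10.33 to 11.28 against 12.37 to 13.28. Those 3 genes separated the groups without overlap, and over the 16 livers they correlated with each other at r of 0.85 to 0.87. ELOVL6 overlapped slightly, at 9.33 to 10.20 against 10.14 to 11.14. ACSS2 did not separate the groups at all, with 9.38 to 10.88 in the low and 10.05 to 10.62 in the high livers, and its correlations with the other 4 lay between -0.26 and 0.25. Group membership still depended on the whole score: leaving FASN out of it changed no member, leaving ACSS2 out replaced 1 high liver, and leaving THRSP out replaced 1 high and 2 low livers. Without ACSS2 in the score, 492 features had an unadjusted limma p under 0.05 and 0 passed the adjusted threshold, against 1441 and 1 with it. Without ME1, or without ELOVL6, the groups kept 5 high and 4 low livers, and these counts rose to 4369 and 8.

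**Figure D1:**
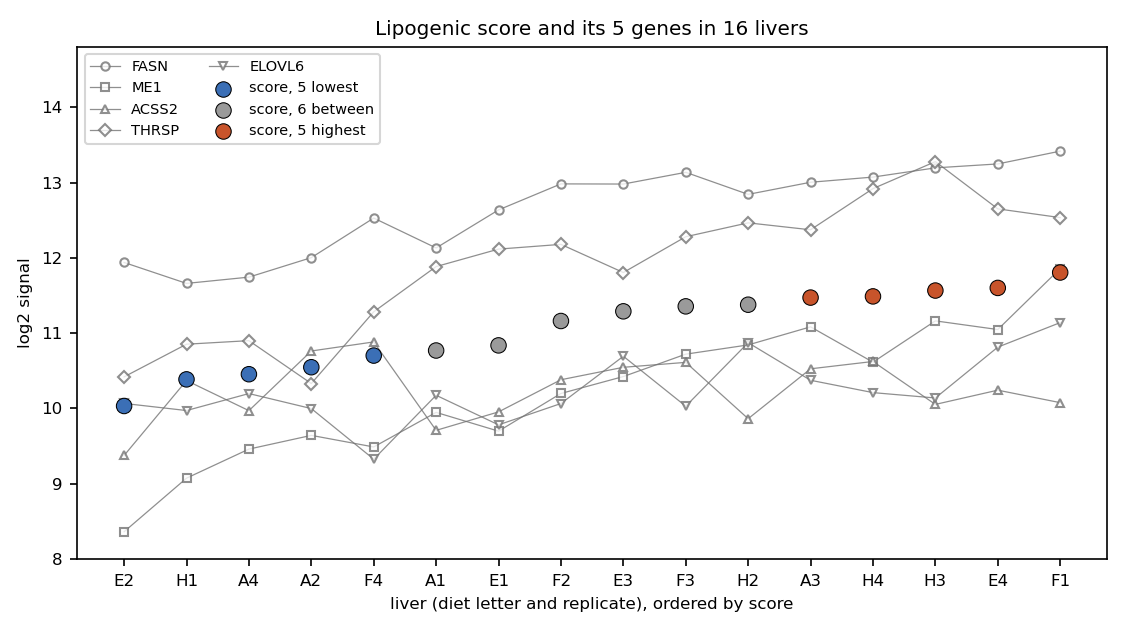
Lipogenic score (large filled circles, mean log2 signal of the 5 genes) and the log2 signal of each scoring gene (open symbols) in the 16 livers, ordered by score, with the 5 lowest livers in blue, the 6 between in grey and the 5 highest in orange. FASN, ME1 and THRSP climb from left to right, ELOVL6 does so less, and ACSS2 stays between 9.38 and 10.88 with no order.

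The tissue was checked against markers of the cells a liver sample can hold. Albumin (ALB) read 13.67 to 13.97 over the 10 livers, and TTR, APOA1, APOB and FGB, all secreted by hepatocytes, had means at the 99.5 to 99.8 percentile of all features, whereas CPS1, an enzyme of the mammalian urea cycle, sat at the 30.3 percentile. The adipocyte hormone ADIPOQ lay at the 36.3 percentile and the intestinal factor CDX2 at the 20.7 percentile, but PLIN1, also an adipocyte marker, lay at 73.6. Markers of the other cell types of liver ran from SOX9 at 43.5 to MARCO of macrophages at 97.1. Among them CDH5 of endothelium stood at 96.8, COL1A1 of stellate cells at 94.8, HBAD of erythroid cells at 93.9 and EPCAM of bile duct at 90.6. Arrays H3 and H4, both in the high group, stood apart from the rest: their first principal component values were 68.9 and 73.2, against -27.7 to 5.07 in the other 3 high livers and -32.6 to 38.9 in the low livers, and their mean correlations with the other arrays were 0.948 and 0.946, where the low livers had 0.966 to 0.975. The differences below are therefore set beside those with these 2 arrays left out and the 5 highest and 5 lowest of the remaining 14 taken, which keeps the same 5 low livers and makes F3, H2, A3, E4 and F1 the high ones. This second set of values is called the 14-array comparison. F4, which it keeps among the low livers, held their top first principal component value of 38.9, and F3 had 20.4. Rank correlations of an array's signal, relative to the other arrays, with gene span were -0.35 for H3, -0.36 for H4, -0.32 for F4 and -0.18 for F3. In the low livers other than F4 they were 0.14 to 0.29.

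Of 20799 features tested with limma, 1 passed an adjusted p of 0.05 as higher in the 5 high livers, which is 0.00481% of the features, and 0 passed as lower, which is 0%. At an unadjusted p under 0.05 there were 1441 features, 760 higher and 681 lower, where 1040 would be reached by that threshold alone. In the 14-array comparison limma called 0 features, and 616 had an unadjusted p under 0.05. Since the livers were sorted by their own values, such a test measures whether a gene follows the score among these birds, and it says nothing of a treatment. Signals of the 5 high and the 5 low livers did not overlap for 130 features in the higher direction (0.625%) and for 89 in the lower (0.428%). In the 14-array comparison the same held for 93 higher (0.447%) and 40 lower (0.192%). Of the 20799 features, 49 had no overlap in both comparisons with the same direction. Genes said below to stay apart in both are to be set against that count. Over the 11523 genes with a single symbol the median difference was 0.0057 on the log2 scale, and 50.7% of them were higher in the high livers.

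The single feature past the threshold was 15440860, to which the annotation gives no gene. It read 5.25, 5.12, 4.94, 4.67 and 5.73 in the low livers, in the order of score given above, and 7.04, 7.42, 7.58, 7.22 and 7.84 in the high livers. No low liver came within 1 log2 unit of a high liver. The difference was 2.28 ± 0.21 (SE, n = 5 and 5) with a limma adjusted p of 0.00357, and 1.95 in the 14-array comparison. The feature from which FASN was read for the score has the ID 15440866, close in number to this one. Whether feature 15440860 and one of the scoring genes measure the same transcript was not tested. It is therefore not counted as a gene separate from them, nor as a result apart from the score.

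When the score was used as a continuous measure over all 16 livers, limma called 12 features at an adjusted p of 0.05: 11 with a positive slope (0.0529%) and 1 with a negative slope (0.00481%). Feature 15440860 was among them, and of the other 11, 6 carried a gene name. These were ANGPTL4, HKDC1, ACSBG2, DUSP14 and TBCA with positive slopes, and CYP3A5 with a negative slope. The 10 livers of the group comparison are part of this fit, so it adds the 6 livers between and the spacing of the scores rather than a separate set of birds. The slope fit was not repeated without H3 and H4. Over the alternatives in the closing section the highest limma adjusted p was 0.9999 for HKDC1, TBCA and CYP3A5, 0.9998 for ACSBG2 and 0.573 for DUSP14.

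ANGPTL4, a secreted inhibitor of lipoprotein lipase that also marks fatty acid sensing by the PPAR receptors, had the widest separation among the genes named by the rule for leading genes. Its log2 signal was 7.78, 7.44, 7.63, 9.30 and 9.47 in the low livers and 11.15, 11.21, 10.60, 11.05 and 11.07 in the high livers, with 8.93 to 10.94 in the 6 between. The groups did not overlap, and among the low livers A2 and F4 read well above E2, H1 and A4. The mean difference was 2.69 ± 0.38 (SE), a 6.47-fold higher signal, with a limma adjusted p of 0.0746, and it was 2.50 in the 14-array comparison. As a slope, ANGPTL4 rose by 2.30 ± 0.24 log2 units per unit of score over the 16 livers, with a limma adjusted p of 0.00039. Over the alternatives in the closing section the limma adjusted p of ANGPTL4 ranged from 0.00039 to 0.423. Without liver F4, whose ANGPTL4 was the highest of the low group, it was 0.0240. Leaving out any other single liver did not bring it under 0.05.

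HKDC1, which encodes a hexokinase-like protein, was singled out after its values were seen. It read 4.60, 5.35, 6.68, 8.74 and 7.54 in the low livers and 9.09, 9.23, 7.46, 9.64 and 10.96 in the high livers. H3, at 7.46, lay below 2 of the low livers, so the groups overlapped. The difference was 2.69 ± 0.77 with a limma adjusted p of 0.640, and 3.12 in the 14-array comparison. Its slope over the 16 livers was 2.72 ± 0.41, with a limma adjusted p of 0.00795.

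Genes that activate, esterify and store fatty acids are described next, by topic and not by rank. ACSBG2, an acyl-CoA synthetase of the bubblegum family, read 9.06, 8.79, 9.16, 11.14 and 10.59 in the low livers and 12.03, 10.84, 11.45, 11.41 and 11.87 in the high livers. Only A2, at 11.14, reached into the high range, above H4. The difference of 1.77 ± 0.43 (3.41-fold) had a limma adjusted p of 0.640, and the 14-array difference was 1.96 with no overlap. Its slope over the 16 livers was 1.67 ± 0.24, with a limma adjusted p of 0.00741. PLIN2, the coat protein of lipid droplets in liver, read 12.14, 11.99, 12.22, 12.03 and 12.35 in the low livers and 13.00, 12.38, 12.55, 12.84 and 12.92 in the high livers. The groups were separated by a narrow gap between F4 and H4, and the difference was 0.59 ± 0.15, or 0.75 in the 14-array comparison (limma adjusted p 0.640 in the first). GPAM, the mitochondrial acyltransferase that starts glycerolipid synthesis, read 10.27, 10.34, 10.74, 10.82 and 10.38 against 11.54, 10.46, 10.90, 11.40 and 12.22. Here H4 was inside the low range. GPAM differed by 0.79 ± 0.28 in the first comparison and by 1.05, without overlap, in the 14-array comparison.

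**Figure D2:**
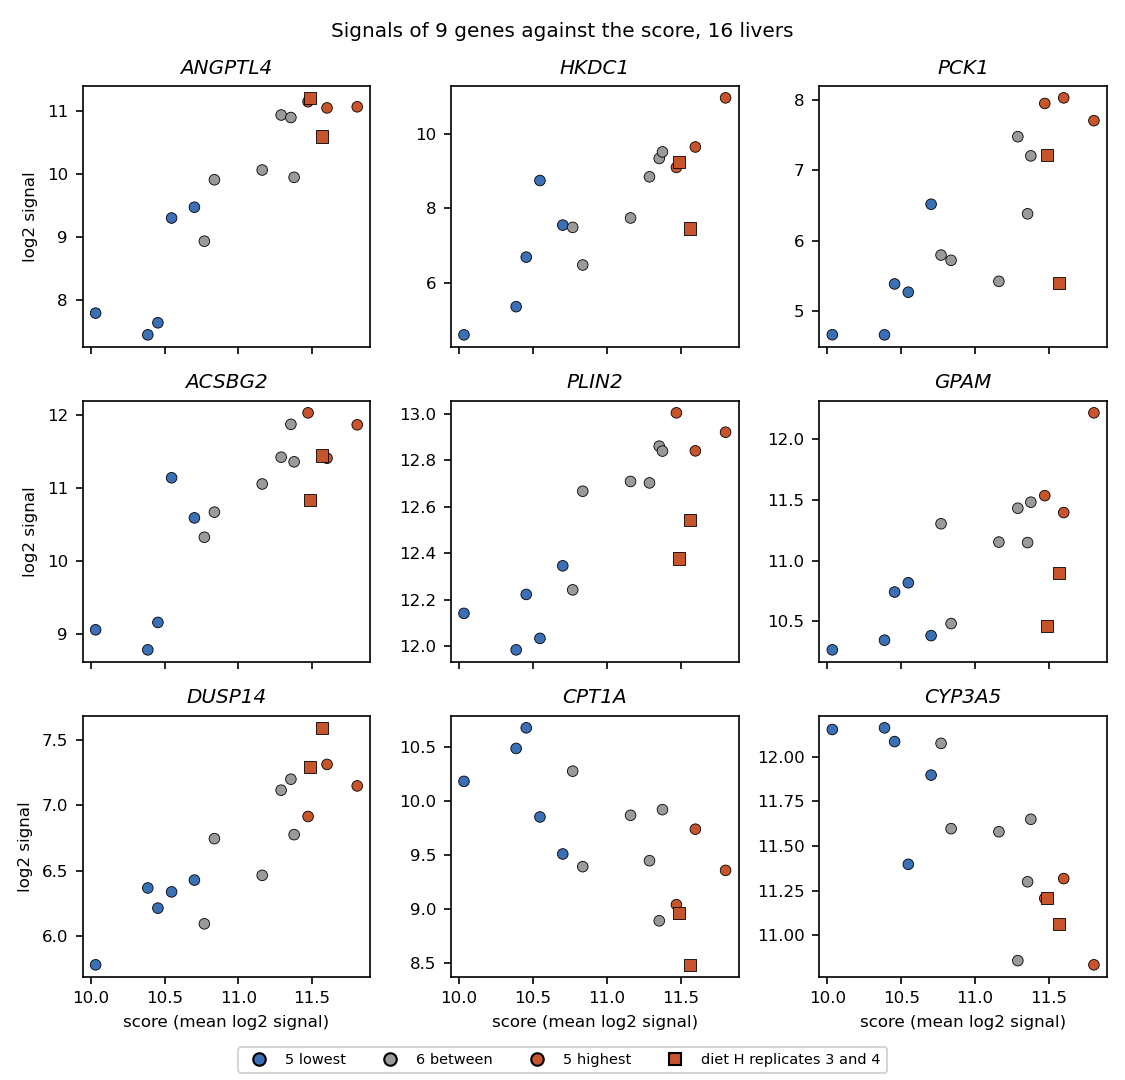
Log2 signal of 9 genes against the lipogenic score in the 16 livers, with the 5 lowest in blue, the 6 between in grey and the 5 highest in orange, the squares being diet H replicates 3 and 4. ANGPTL4, HKDC1, ACSBG2 and DUSP14 climb with the score and CYP3A5 runs the other way; the squares lie low for PCK1 (H3), PLIN2 and GPAM.

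Of 32 measured genes of triglyceride assembly and lipid droplets, 20 were higher and 12 lower on average, none past the threshold, with a median difference of 0.13 that was 0.05 in the 14-array comparison. Besides the genes above, ACSL6, another acyl-CoA synthetase, separated the groups at 4.11 to 4.91 against 5.02 to 6.14, close to the dim end of the array. AGPAT2, which adds the next acyl chain to the glycerol backbone, differed by 0.90 and by 0.56 in the 14-array comparison, and G0S2, an inhibitor of the lipase PNPLA2, by 0.89 and 0.73. LPIN2, a phosphatidate phosphatase, went the other way, with 9.13 to 9.99 in the low livers and 7.96 to 9.13 in the high. Its difference was -0.86 ± 0.24, and -0.47 with the 14 arrays. LPIN1, of the same enzyme family, differed by 0.25 and 0.60. The list thus holds members in both directions, with the larger differences upward.

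Of 23 other genes listed for fatty acid synthesis and NADPH supply, only 9 were matched to a feature, and ACACA and ACLY were not among them. These 9 did not follow the scoring genes as a group, which leaves the unmatched genes undescribed. Of 9 measured, 2 were higher and 7 lower, with a median of -0.22, and 0 passed the threshold. With the 14 arrays 4 were higher and the median was -0.03. It was 0.07 when H3 and H4 were dropped from the high group without replacement. The mitochondrial citrate carrier SLC25A1, which brings the carbon for fatty acids into the cytosol, read 10.64 to 11.48 in the low and 11.31 to 11.84 in the high livers, a difference of 0.47 ± 0.17 that was 0.23 with the 14 arrays. PGD, the later NADPH-producing enzyme of the pentose phosphate pathway, differed by 0.20 ± 0.14, and by 0.17 with the 14 arrays. IDH1, a cytosolic NADPH source, differed by -0.42 ± 0.20 and by -0.20. PANK1, which starts coenzyme A synthesis, differed by -0.64 ± 0.24 and by -0.29 with the 14 arrays. Leaving out H3 alone moved the median of the list to -0.09.

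Both desaturases of polyunsaturated fatty acids averaged higher in the high livers without passing the threshold. FADS1, the delta-5 desaturase, read 10.03 to 10.86 in the low and 10.70 to 11.11 in the high livers, differing by 0.54 ± 0.17. FADS2, the delta-6 desaturase, read 12.29 to 12.94 against 12.58 to 13.20 and differed by 0.46 ± 0.17. With the 14 arrays these differences were 0.45 and 0.50. ELOVL5, which lengthens polyunsaturated chains, differed by 0.08 ± 0.18, and by 0.29 with the 14 arrays. Over the 13 measured genes of desaturation and elongation 7 were higher, with a median of 0.05 that was -0.02 with the 14 arrays (limma adjusted p 0.640 for each desaturase).

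Among regulators, SREBF1, the sterol-response factor that drives FASN and its partners, read 7.44, 7.44, 7.41, 7.57 and 8.19 in the low livers and 8.02, 8.59, 8.86, 8.005 and 7.66 in the high livers. F4, the low liver nearest to the boundary, was the only low liver inside the high range, and F1, the liver with the top score, had the lowest SREBF1 of the high group. The difference was 0.62 ± 0.24 (limma adjusted p 0.640), and it was 0.33 in the 14-array comparison, where H3 and H4, with the 2 highest values, are absent. INSIG1, which retains the SREBP complex in the endoplasmic reticulum, differed by -0.07 ± 0.27 and by 0.33 with the 14 arrays, so its direction was not settled. MID1IP1, the paralogue of THRSP, differed by 0.32 ± 0.22 and by 0.05 with the 14 arrays. DIO3, which inactivates thyroid hormone, read 4.27 to 5.56 in the low and 4.13 to 4.82 in the high livers, differing by -0.63 ± 0.25 and by -0.73 with the 14 arrays. Both DIO3 ranges reach below the 20th percentile of all values, 4.31, so this is a dim gene. DIO2, which activates thyroid hormone, differed by 0.43 and by 0.94. Of 27 measured lipogenic regulators 17 were higher, with a median of 0.09 (0.05 with the 14 arrays), and none passed the threshold in the group comparison.

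Enzymes of glucose handling were examined because glucose supplies the carbon, those of gluconeogenesis and glycogen first. PCK1, the cytosolic enzyme that makes phosphoenolpyruvate for gluconeogenesis and for the glycerol backbone of triglycerides, read 4.66, 4.66, 5.38, 5.26 and 6.52 in the low livers and 7.95, 7.22, 5.40, 8.03 and 7.71 in the high livers. A3, H4, E4 and F1 were above every low liver, and H3 was not. The difference was 1.97 ± 0.50 (3.91-fold, limma adjusted p 0.640), and 2.16 with the 14 arrays. FBP1, another gluconeogenic enzyme, differed by -0.04 ± 0.11, at 13.19 to 13.38 against 13.11 to 13.32, and by 0.01 with the 14 arrays. G6PC, which releases glucose in the last step of the pathway, read 7.12, 6.99, 6.95, 6.60 and 7.11 in the low livers and 7.13, 8.47, 8.49, 6.95 and 6.98 in the high livers. H4 and H3 stood above all others, and the difference of 0.65 ± 0.32 was 0.08 with the 14 arrays. PPP1R3B, which targets protein phosphatase to glycogen, read 9.32 to 10.26 against 10.28 to 10.65, without overlap, and differed by 0.76 ± 0.18 and by 0.65 with the 14 arrays. PYGL, liver glycogen phosphorylase, differed by 0.65 ± 0.24 and 0.30. Of 22 measured genes of gluconeogenesis and glycogen 14 were higher (median 0.17, 0.08 with the 14 arrays, and 0.07 without H4 alone).

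Pyruvate dehydrogenase, which turns pyruvate into acetyl-CoA, showed small separations. Its subunit DLAT read 9.67 to 10.08 in the low and 10.14 to 10.62 in the high livers, and PDHB 10.46 to 10.79 against 10.94 to 11.19. Neither overlapped in either comparison, with differences of 0.51 ± 0.14 for DLAT and 0.43 ± 0.12 for PDHB, and of 0.56 and 0.38 with the 14 arrays. PDK4, the kinase that switches this complex off, read 6.34 to 7.92 against 6.14 to 7.36 and differed by -0.71 ± 0.31 (-0.60 with the 14 arrays). GPI, which interconverts hexose phosphates, did not overlap at 11.004 to 11.37 against 11.40 to 11.67, with a difference of 0.39 ± 0.13 that was 0.34, with overlap, with the 14 arrays. PFKL, liver phosphofructokinase, differed by 0.85 ± 0.29 but by 0.30 with the 14 arrays, and PKLR, the pyruvate kinase of liver, by 0.33 ± 0.27 and 0.09. The PKLR difference was -0.10 when H3 and H4 were dropped from the high group without replacement, and 0.10 without H3 alone. Of 25 measured genes of glycolysis and pyruvate 16 were higher, with a median of 0.10 (0.09 with the 14 arrays), and 0 passed the threshold.

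Fatty acid oxidation genes averaged lower in the high livers, but their median was near 0 once H3 and H4 were left out. CPT1A, which admits long-chain fatty acids to the mitochondrion and is the control point of the pathway, read 10.18, 10.49, 10.68, 9.85 and 9.51 in the low livers and 9.04, 8.96, 8.48, 9.74 and 9.36 in the high livers. F4, the low liver nearest the boundary, had a lower signal than E4 in the high group, so the groups overlapped by that pair. The difference was -1.03 ± 0.27, a 2.04-fold lower signal (limma adjusted p 0.640), and -0.75 with the 14 arrays. PPARA, the receptor that drives this pathway, differed by -0.55 ± 0.29 but by only -0.13 with the 14 arrays, H3 and H4 having its lowest values, 7.85 and 7.86. ACAA1, a peroxisomal thiolase, differed by -0.58 ± 0.23 and -0.48, and ACAT1, a mitochondrial acetoacetyl-CoA thiolase, by -0.45 ± 0.18 and -0.35. Of 31 measured genes of fatty acid oxidation and ketone bodies 9 were higher and 22 lower, with a median of -0.18. The median was -0.05 with the 14 arrays and -0.07 without H3 alone. It was -0.015 when H3 and H4 were dropped from the high group without replacement. H3 had the lowest summary level of the list among the high livers, and those of E4, F1 and H4 lay inside the range of the low livers, -0.07 to 0.25.

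Cholesterol synthesis gave the highest median of the 33 lists examined. Of 13 measured genes 10 were higher, with a median of 0.36, and in the 14-array comparison 12 were higher with a median of 0.42. Without F1 the median was 0.23, and the summary levels of H3 and H4, -0.05 and -0.08, lay inside the range of the low livers, -0.36 to -0.01. LSS, lanosterol synthase, read 9.53, 10.06, 9.58, 9.43 and 9.90 in the low livers and 10.42, 10.70, 10.68, 10.45 and 10.42 in the high livers. It separated the groups by 0.83 ± 0.15 (1.78-fold, limma adjusted p 0.283) and by 0.60, with overlap, in the 14-array comparison. HSD17B7, a later enzyme of the route, read 8.87 to 9.28 against 9.40 to 10.29, and ACAT2, which makes acetoacetyl-CoA for it, 9.42 to 9.65 against 9.69 to 10.31. Both stayed apart in both comparisons. The regulator SREBF2 differed by 0.56 ± 0.19 and by 0.32 with the 14 arrays, and CYP51A1, the demethylase after LSS, by 0.37 and 0.48. HMGCS1, which makes HMG-CoA, lay farthest in the other direction, with a difference of -0.64, and of -0.20 with the 14 arrays. None of the 13 passed the threshold.

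In the lipoprotein list 12 of 18 measured genes were higher, with a median of 0.18 that was 0.01 with the 14 arrays and 0.09 without E2 alone. APOA4, an apolipoprotein of lipid-rich particles, read 9.13, 8.93, 8.23, 8.76 and 9.39 in the low livers and 9.70, 11.08, 10.81, 10.47 and 10.73 in the high livers. The groups did not overlap, and the difference was 1.67 ± 0.27 (3.18-fold, limma adjusted p 0.163). It was 1.16 with the 14 arrays, H4 and H3 having had the 2 highest signals. Without liver A3, whose APOA4 was the lowest of the high group, the limma adjusted p was 0.0460. Leaving out any other single liver did not bring it under 0.05. Over all alternatives the limma adjusted p of APOA4 ranged from 0.0247 to 0.717. LIPG, endothelial lipase, read 5.26 to 5.69 against 5.92 to 6.26, a difference of 0.63 ± 0.14 and of 0.65 with the 14 arrays. LPL, lipoprotein lipase, differed by -0.71 ± 0.21 and by -0.48. MTTP, which loads lipid onto apolipoprotein B, differed by 0.24 ± 0.24 and by 0.50 with the 14 arrays, and APOB itself by -0.33 ± 0.25 and -0.01. The APOB difference was 0.05 when H3 and H4 were dropped without replacement. The genes of lipoprotein export had differences in both directions.

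The rule for leading genes took the 12 higher and 12 lower named genes with the smallest p, whether past the threshold or not. On the higher side these were ANGPTL4, APOA4, DUSP14, LSS, POLDIP2, SSPN, UCHL1, TRAF7, TBCA, LIPG, LGALS1B and SLC9A7. For each the 5 high and 5 low livers did not overlap, against 0.625% of all features in that direction. The genes were chosen by p in the same livers, so the lack of overlap is no separate result. DUSP14, a dual-specificity phosphatase that acts on MAP kinases, read 5.78 to 6.43 in the low and 6.92 to 7.59 in the high livers. Its difference was 1.03 ± 0.17 (2.04-fold, limma adjusted p 0.163), it was 0.85 with the 14 arrays, and its slope over the 16 livers was 0.88 ± 0.12 with a limma adjusted p of 0.00497. TBCA, a tubulin-folding cofactor, read 9.47 to 10.12 against 10.29 to 11.04, differing by 0.84 ± 0.18 and by 0.71 with the 14 arrays, and its slope was 0.73 ± 0.12 with a limma adjusted p of 0.0196. UCHL1, a ubiquitin hydrolase best known from neurons, read 5.10 to 6.56 against 6.71 to 7.69 and differed by 1.43 ± 0.30, or 1.17 with the 14 arrays. Apart from ANGPTL4, APOA4, LSS and LIPG, none of these genes was on a lipid list.

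On the lower side the leading genes were CRTAM, CHST4, CYP3A5, OSBPL3, TESK2, LUM, CPT1A, PRPS2, NCALD, ARHGEF18, DCK and PTAFR. Of these, 8 did not overlap, against 0.428% of all features in that direction, and they too were chosen by p in the same livers. CYP3A5, a drug- and steroid-oxidizing cytochrome, read 12.15, 12.16, 12.08, 11.40 and 11.90 in the low livers and 11.21, 11.21, 11.07, 11.32 and 10.84 in the high livers. A2 was the only low liver near the high range. The difference was -0.81 ± 0.17, a 1.75-fold lower signal (limma adjusted p 0.439), and -0.68 with the 14 arrays. As a slope over the 16 livers CYP3A5 fell by 0.72 ± 0.13 log2 units per unit of score, with a limma adjusted p of 0.0424. CRTAM, a receptor of activated T and NK cells, read 6.33 to 6.62 against 5.53 to 6.03, but its difference of -0.70 ± 0.13 was -0.27 with the 14 arrays. PTAFR, the receptor for platelet-activating factor, shrank from -0.58 to -0.19 in the same way.

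All 24 leading genes kept their sign in the 14-array comparison, though only 5 of the higher and 0 of the lower still had no overlap there. Over all features the shares there were 0.447% higher and 0.192% lower. That comparison shares 8 of the 10 livers with the first. In the 6 livers between, which took no part in the choice of these genes, the slope on the score had the sign of the group difference for 11 of the 12 higher and 9 of the 12 lower genes. For all other named genes the sign was the same in 4762 of 11499. These are counts over genes measured in the same 6 birds, and no test was made of them.

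**Figure D3:**
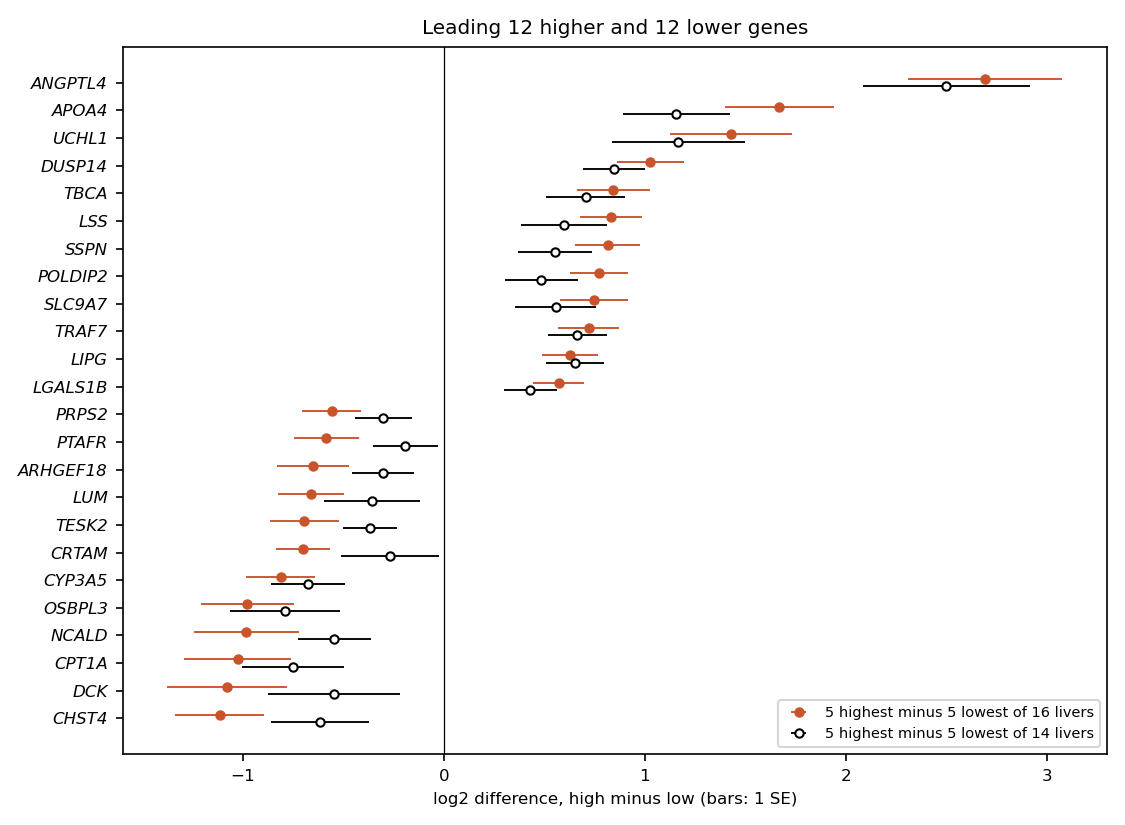
Log2 difference, 5 highest minus 5 lowest livers, of the 12 higher and 12 lower leading genes, with bars of 1 SE; filled points come from all 16 livers and open points from the 14 without diet H replicates 3 and 4. Every open point has the sign of its filled point, most lie nearer to 0, and ANGPTL4 is farthest out at 2.69 and 2.50.

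For several larger gene groups the difference was near 0 once arrays H3 and H4 were left out. Of 46 measured genes of oxidative phosphorylation 45 were higher, with a median of 0.25, but with the 14 arrays 33 were higher and the median was 0.03. H3 and H4 had summary levels of 0.43 and 0.56 for this list (median of the members' log2 signals, each centred on its mean over the livers), against -0.26 to 0.17 in the low livers. Of 46 cytosolic ribosomal protein genes 44 were higher, with a median of 0.21 and, with the 14 arrays, 25 higher and 0.01. Of 19 genes of insulin and nutrient signalling 13 were lower with a median of -0.30, which was 0.02 with the 14 arrays, H3 and H4 standing at -0.69 and -0.65. IRS4, an adaptor of insulin-type receptors, was the only member of that list without overlap in both comparisons, at 7.98 to 8.27 against 6.87 to 7.84. Over all features this held for 49 of 20799. The circadian clock list had 11 of 13 genes lower with a median of -0.23, which was 0.06 with the 14 arrays. Across the features with a known gene span, the rank correlation of the difference with the span was -0.31 in the first comparison and 0.05 with the 14 arrays. With the trend on gene span taken out, 3 of the 33 list medians moved by at least the pooled within-group SD and 30 did not. Whether span is a cause of the list medians was not tested.

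Cell cycle genes averaged lower in the high livers in both comparisons. Of 49 measured genes 45 were lower in the high livers, with a median of -0.62, and 44 were lower with the 14 arrays, with a median of -0.27. When H3 and H4 were dropped from the high group without replacement the median was -0.72. MKI67, a protein of dividing cells, read 8.55, 5.77, 8.31, 6.18 and 5.60 in the low livers and 5.37, 4.56, 4.40, 5.65 and 5.36 in the high livers. The 2 low livers E2 and A4 stood far above the rest, and the other 3 were near the high livers. The mean difference was -1.82 ± 0.57, and -0.71 with the 14 arrays. Among the livers between, H2 read 8.72, above both, and F2 read 7.98. H2 belongs to the high livers of the 14-array comparison. AURKB, a mitotic kinase, gave -1.32 ± 0.48, and -0.59 with the 14 arrays, and no gene of the list passed the threshold. Leaving out E2 moved the list median to -0.39, and leaving out A2 moved it to -0.78.

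Interferon-induced genes were lower for 21 of 29 measured members, with a median of -0.35 that was -0.19 with the 14 arrays, -0.21 without H4 alone and -0.53 without F4 alone. SAMD9L, an antiviral response gene, ran from 5.53 to 8.64 in the low and from 4.71 to 6.997 in the high livers, so the low livers alone covered most of the range. Of 13 genes of bile acid synthesis and transport 8 were higher (median 0.08, and 0.19 with the 14 arrays), with CYP8B1, which sets the cholic acid share, at -0.90 ± 0.35 and -0.73. Endoplasmic reticulum folding and stress genes had a median of 0.00 over 29 members, of which 16 were higher, and with the 14 arrays 25 were higher and the median was 0.15. Citrate cycle genes (15 measured) had a median of 0.07, which was 0.00 with the 14 arrays. Fasting response genes (19) had 0.12 and -0.02, the first becoming -0.05 without E2, and immediate early genes (17) had 0.15 and 0.07. Amino acid breakdown (28) had medians of -0.09 and -0.04, and cytochromes and conjugation (24) 0.01 and -0.01. Antioxidant and glutathione genes (23) had 0.02 and -0.08, and acute phase and plasma proteins (26) -0.16 and -0.04. No member of any list passed the threshold in the group comparison.

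**Figure D4:**
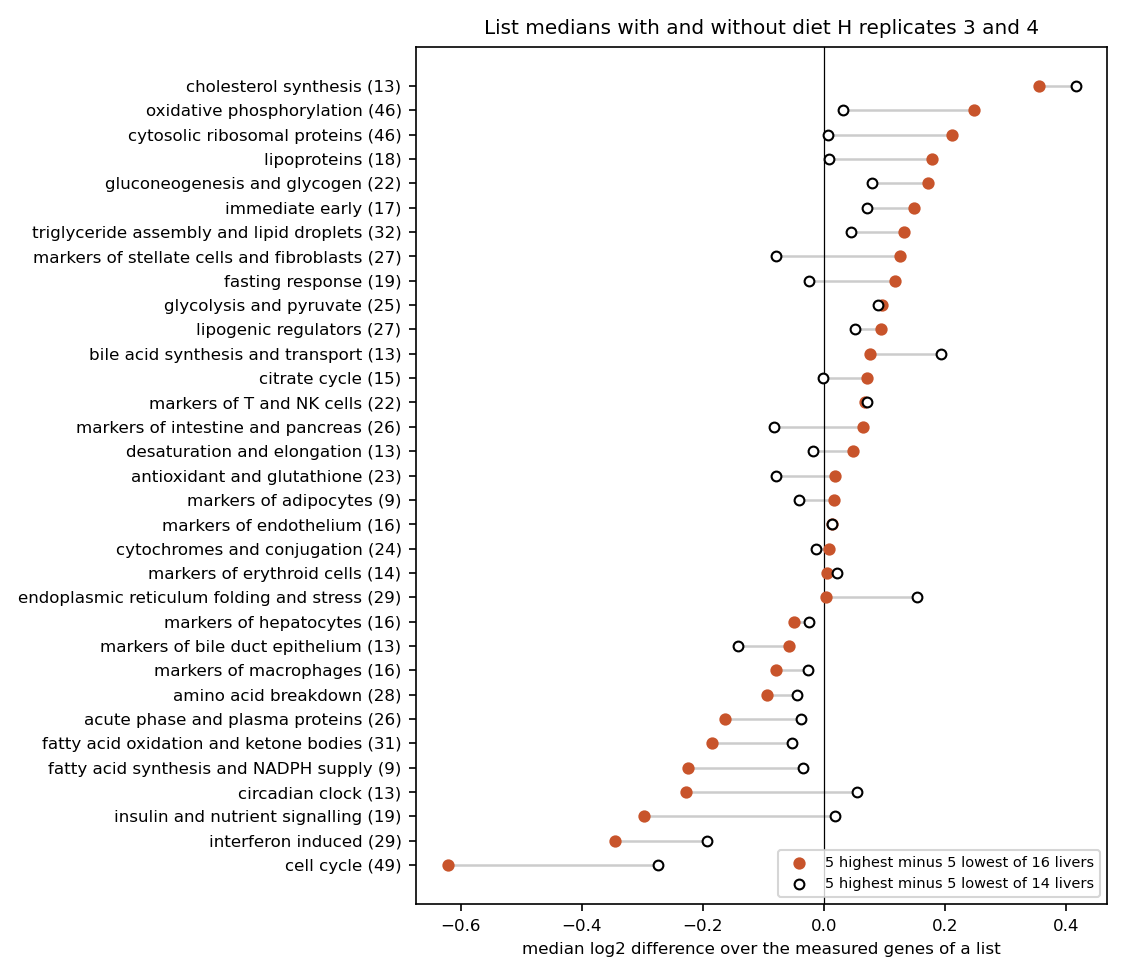
Median log2 difference, 5 highest minus 5 lowest livers, over the measured genes of each of the 33 lists (number of genes in parentheses), filled for all 16 livers and open for the 14 without diet H replicates 3 and 4. Cholesterol synthesis lies highest in both, cell cycle lowest in both, and the medians of oxidative phosphorylation and ribosomal proteins come down to 0.03 and 0.01.

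Markers of other cell types were compared because a liver sample is a mixture, and in such bulk RNA fewer cells of a type and less RNA per cell cannot be told apart. Hepatocyte markers had a median difference of -0.05 (-0.02 with the 14 arrays), with 7 of 16 higher and summary levels of -0.01 to 0.08 in the low and -0.06 to 0.03 in the high livers. Macrophage markers had a median of -0.08 and, with the 14 arrays, -0.03 (4 of 16 higher), at 0.01 to 0.18 against -0.42 to 0.06, the lowest being H4. For T and NK cell markers the median was 0.07 in both comparisons (14 of 22 higher in the first), at -0.10 to 0.02 against -0.17 to 0.15. Stellate cell and fibroblast markers stood at 0.13 (18 of 27) and at -0.08 with the 14 arrays, endothelial markers at 0.01 (8 of 16) and 0.01, and bile duct markers at -0.06 (5 of 13) and -0.14. Erythroid markers had a median of 0.00 (8 of 14) and 0.02, adipocyte markers 0.02 (6 of 9) and -0.04, and markers of intestine and pancreas 0.07 (17 of 26) and -0.08. The summary levels of the 2 groups overlapped for each of these lists. EPCAM, an epithelial surface protein, was the bile duct marker farthest from 0, at 8.95 to 9.64 against 8.34 to 9.19, a difference of -0.67 ± 0.21 and of -0.58 with the 14 arrays. SPI1, a transcription factor of myeloid cells, differed by -0.75 ± 0.21 and by -0.26 with the 14 arrays. The part of cell composition in the gene differences above was not tested.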

How the data were processed

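Total RNA of 16 livers was labelled with biotin for Affymetrix arrays, per the labels' protocols. The authors' deposited values are on the log2 scale, 1 column per liver and 20804 features, from 0.93 to 14.63. The submitters' processing notes name GCOS 1.1.1, and the normalization is otherwise not given in the sources used here. No depth applies to arrays, whose number limits the precision. Gene symbols came from the platform annotation: 12300 features had 1 symbol, 256 several and 8248 none, and 11528 genes kept the feature with the highest mean. The 5 highest and 5 lowest livers by score were compared with limma 3.58.1 (R 4.3.3; lmFit and eBayes, two-sided, Benjamini-Hochberg adjustment over 20799 features, threshold 0.05), tested first on simulated data. Features of the 5 scoring genes were left out. The genes named were the 12 higher and 12 lower with the smallest p and a mean above the 20th percentile in either group, a set of 33 core genes of which 24 were matched, and up to 4 members of each of 33 lists by p. A few other list members were named after their values were seen. Members and lists were chosen with earlier results of these data known. The p-values set a difference against the spread within the 2 groups and treat the livers, selected from the ends of the score, as independent. The labels do not say more of the birds' housing, so whether the livers are independent cannot be told from them. Alternatives changed the score, group size, covariates, normalization, filter and arrays.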

Additional observations from a re-analysis of the deposited data

Results flagged for a closer look

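Values were checked for a single liver far from the others of its group, by the gap to its nearest neighbour divided by the range of the group (Dixon's 95% limit). Chance alone marks about 1 in 20 groups, and 14 of 200 groups examined were marked. In the high livers, ANGPTL4 was lowest in H3 at 10.6, SSPN, the membrane protein sarcospan, was highest in H4 at 7.43, IRS2, an insulin receptor substrate, was lowest in E4 at 6.28, and SGK1, a kinase, was highest in A3 at 11.10. In the low livers, F4, which lay nearest to the boundary, had the highest SREBF1 at 8.19, the lowest INSIG2 at 9.55 (9.545 before rounding), the lowest MTTP at 10.41, and the highest summary levels of the gluconeogenesis list at 0.12 and of the ribosomal protein list at 0.23. H1 had the lowest TRAF7 at 7.17 and the lowest CHST4 at 6.13 of the low livers. TBCA was highest in A2 at 10.12, and ACAT2 was lowest in A4 at 9.42. Among the 4 livers of diet H the score of H1, 10.39, stood apart from the other 3. No cause of these values was tested.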

How the results depend on the processing

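With 5 livers a group the typical standard error of a gene's difference was 0.19, and the groups were cut where the score had no wide gap. No paired analysis was possible because the labels carry no replicate numbers: those used here were given in accession order and pair no livers. The count of features past the threshold, 1 as reported, was 8 with the scoring genes scaled to equal spread, 8 without ME1 in the score, 8 without ELOVL6, 0 without ACSS2, 5 with 4 against 4 livers, 12 as a slope over 16 livers, 3 among 16688 brighter features, 11 with array weights, and 0 with the trend on gene span taken out (11722 features), with the 14 arrays, or with 3 high and 5 low livers after H3 and H4 were dropped, an alternative chosen after seeing the data. It stayed at 1 without THRSP in the score, with 6 against 6 livers, with diet or the block of title numbers as a covariate, after quantile normalization and with a trended prior. Leaving FASN out of the score kept all livers of both groups, so that run repeats the main test. The settings with 8 each kept 5 high and 4 low livers and had the same 4369 features at an unadjusted limma p under 0.05. They are therefore not counted as separate alternatives. Leaving out each liver gave 1 to 4 past the threshold, with 4 without F4 and 4 without A3. Features with an unadjusted limma p under 0.05, 1441 as reported, ranged from 492 without ACSS2 in the score to 4369 without ME1. They numbered 3349 with 4 against 4 livers, 872 with 6 against 6, 2259 with array weights, 2986 without F4 and 3139 without F1. A term for the interaction of score group and title block rests on F1 as the only high liver of the lower block. It cannot tell a difference between blocks from this 1 liver, so no count is drawn from it.

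Within the lower title numbers, with F1 alone on the high side, 22 of the 86 gene differences followed moved by at least the pooled within-group SD. So did 14 of the 33 list medians. Within the upper title numbers 2 gene differences and 2 list medians did so. Outside the comparisons within title blocks, directions changed for 7 of the 86 genes. INSIG1 was 0.21 without ACSS2 in the score, 0.012 with 6 against 6 livers, 0.020 with diet and 0.20 with title block as a covariate, 0.051 with the span trend out, 0.018 with array weights, 0.33 with the 14 arrays and 0.31 with 3 against 5, and -0.24 to 0.11 over single livers left out. ELOVL5 was -0.0081 with the scaled score and without ME1 or ELOVL6, and -0.018 to 0.20 over single livers. INSR was -0.037 without ACSS2, -0.026 with the 14 arrays and -0.0052 with 3 against 5. INSIG2 was 0.0067 with the 14 arrays and 0.072 with 3 against 5, and FBP1 0.0081 and 0.015. With 3 against 5, APOB was 0.050 and PKLR -0.10.

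The median of the triglyceride list was 0.20 with the scaled score and without ME1 or ELOVL6, 0.031 without ACSS2, 0.064 without THRSP, 0.071 with 6 against 6, 0.045 as a slope, 0.045 with the 14 arrays and 0.063 to 0.18 over single livers left out. The gluconeogenesis median was 0.069 without ACSS2, 0.062 with title block, 0.050 with 3 against 5 and 0.069 to 0.17 over single livers. Within the lower title numbers, where the high side is the single liver F1 against 3 low livers, the medians were 0.15 for fatty acid synthesis, -0.070 for lipogenic regulators, 0.57 for cholesterol synthesis, 0.022 for oxidation and -0.033 for oxidative phosphorylation. Fatty acid synthesis was 0.073 with 3 against 5. The cause of these shifts was not tested.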
